A study of Mus musculus with 6 samples.

Results

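The HSP70 family chaperones were examined in AML12 cells, a mouse hepatocyte cell line, after hypoxia and reoxygenation (H/R). The family was taken as 10 genes, found by their symbols among the 25330 genes of the deposited tables: Hspa1a, Hspa1b, Hspa1l, Hspa2, Hspa4, Hspa4l, Hspa8, Hspa9, Hspa13 and Hspa14. These genes were selected on measured values, namely the difference between H/R and Control libraries in these same data, so their own values in that contrast are given as a description, with no p-value for any member. How many of them were past a threshold is stated once, beside the share of all genes past it, and supports nothing. All 6 libraries came from AML12 cells of WT genotype. The 3 Control libraries came from cells kept in 21% oxygen in DMEM/F12 medium with fetal bovine serum, an insulin, transferrin and selenium supplement, and dexamethasone. The 3 H/R libraries came from cells held in 1% oxygen for 6 h in a medium without serum or glucose, and then reoxygenated for 2 h. Oxygen, serum, glucose and the replacement of the medium itself therefore differed at the same time, and their parts in any difference cannot be told apart. Whether the supplement and dexamethasone were kept in the H/R medium is not stated.

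HSP70 chaperones bind short hydrophobic stretches of unfolded proteins in a cycle driven by ATP. J-domain proteins bring the substrate and trigger ATP hydrolysis, and nucleotide exchange factors then release ADP so that the substrate can leave. Some members are made at all times, such as the cytosolic chaperone encoded by Hspa8 and the mitochondrial one encoded by Hspa9, whereas Hspa1a and Hspa1b are classic targets of heat shock factor 1, which binds heat shock elements built from repeats of the letters GAA in alternating orientation. In liver, the inducible HSP70 protein is a common marker of ischemic and thermal stress.

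Hspa1a and Hspa1b are neighbours. In GRCm38, Hspa1b lies on chromosome 17 from 34956436 to 34959238 and Hspa1a from 34969190 to 34972156, both on the minus strand with 1 exon each and 9951 bases between them. Hspa1l lies on the plus strand from 34972703 to 34979285, head to head with Hspa1a, and 546 bases separate their first bases. The coding sequences of Hspa1a and Hspa1b were 99.4% identical (1915 of 1926 aligned positions), against 82.8% for Hspa1a and Hspa1l, 78.2% for Hspa1a and Hspa2, 73.9% for Hspa1a and Hspa8, and 52.2% for Hspa1a and Hspa9. The likeness of Hspa1a and Hspa1b went on into the promoters, where 247 of the 250 bases before the start site were the same.

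The 250 bases upstream of the start sites of these 3 neighbours (RefSeq, GRCm38.p6) are shown because the adjacent genes differed in their values after H/R, as described further on. They are written 5′ to 3′ on the strand of each gene, and capitals mark a heat shock element of 2 units. The regions are chr17:34972157-34972406 on the minus strand for Hspa1a, chr17:34959239-34959488 on the minus strand for Hspa1b, and chr17:34972453-34972702 on the plus strand for Hspa1l.
Hspa1a: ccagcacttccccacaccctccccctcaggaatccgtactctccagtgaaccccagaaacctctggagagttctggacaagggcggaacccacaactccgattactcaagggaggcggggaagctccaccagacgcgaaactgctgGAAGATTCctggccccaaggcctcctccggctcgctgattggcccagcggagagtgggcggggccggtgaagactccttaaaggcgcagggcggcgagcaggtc
Hspa1b: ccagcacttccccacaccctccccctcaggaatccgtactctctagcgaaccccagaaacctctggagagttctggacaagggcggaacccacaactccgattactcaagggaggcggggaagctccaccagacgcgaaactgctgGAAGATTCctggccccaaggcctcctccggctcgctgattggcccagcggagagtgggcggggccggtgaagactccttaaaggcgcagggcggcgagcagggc
Hspa1l: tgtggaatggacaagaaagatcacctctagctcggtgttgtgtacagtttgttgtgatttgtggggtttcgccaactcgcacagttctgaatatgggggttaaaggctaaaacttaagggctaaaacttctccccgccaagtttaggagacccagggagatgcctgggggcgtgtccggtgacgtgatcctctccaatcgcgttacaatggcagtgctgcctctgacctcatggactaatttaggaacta

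A RefSeq promoter window, from 250 bases before to 50 after the start, was matched for 7 of the 10 members (Hspa1a, Hspa1b, Hspa1l, Hspa2, Hspa4, Hspa4l and Hspa14). Hspa8, Hspa9 and Hspa13 were not searched. A heat shock element of 2 units, GAANNTTC or TTCNNGAA on either strand, was found in Hspa1a and Hspa1b alone among these 7. It stood in both at -104 to -97 from the start, and occurred in 15.1% of all 32851 promoter windows. The upstream bases of Hspa1a and Hspa1b are near copies (247 of 250 the same), so their matches are not separate findings. The Hspa1l window does not reach the Hspa1a element, which lies between these neighbours. The element of 3 units, GAANNTTCNNGAA or TTCNNGAANNTTC, each of which contains both elements of 2 units, occurred in 0.603% of all windows and in 0 of the 7. The letters CCAAT occurred in 37.4% of all windows and in 5 of the 7. They stood at -67 to -63 in both Hspa1a and Hspa1b, at -57 to -53 in Hspa1l, at -29 to -25 in Hspa2, and at 3 places in Hspa14, on the other strand in each gene except Hspa1l. The letters TATAAA occurred in 13.6% of all windows and in 0 of the 7. A match of letters is not a bound site, and an absent match says only that these letters are not in the window. Whether any of these letters bear on the values after H/R was not tested.

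**Figure D1:**
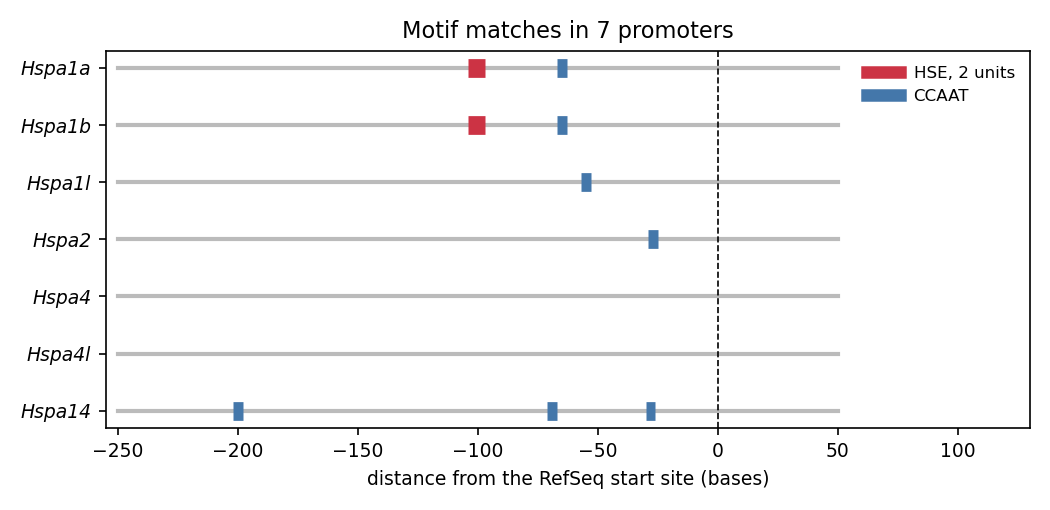
Positions of heat shock elements of 2 units (red) and CCAAT letters (blue) in the promoter windows of 7 HSP70 genes, by distance in bases from the RefSeq start site (dashed line). Hspa1a and Hspa1b carry the element at -104 to -97, and the other 5 windows show no red mark. The Hspa1a element lies in the 546 bases between Hspa1a and Hspa1l, beyond the end of the Hspa1l window.

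The libraries held between 20438746 and 21854790 counts. The liver products of the hepatocyte marker list were scarce in these cells: Alb, which encodes albumin, had 132 to 542 counts in the Control libraries and 31 to 43 after H/R, whereas the hepatocyte nuclear factor Hnf4a had 2973 to 3209 and 2035 to 2166. In all, 8 of 10 hepatocyte markers had over 10 counts in every library, and their summed level was 4.16e+03 to 4.5e+03 CPM (counts scaled to the library total) in Control and 6.13e+03 to 6.16e+03 after H/R, most of it from the keratins Krt8 and Krt18. Of the markers of other cells, 0 of 3 endothelial, 0 of 4 stellate, 0 of 2 erythroid and 1 of 4 leukocyte markers (Cd68) passed that level, and the bile duct keratins Krt19 and Krt7 both did. Summed leukocyte markers were 0.915 to 1.43 CPM in Control and 5.68 to 6.49 after H/R, most of it Cd68, while Ptprc stayed at 0 to 3 counts; the part of this in any result was not tested. Control replicate 1 stood apart in its Alb count and in Serpina1a (61 counts, against 0 to 1 elsewhere). It also had 131335 counts of Rn18s-rs5, related to 18S ribosomal RNA, against 28347 to 43775 elsewhere. Its counts over many genes differed more from Control replicates 2 and 3 (chi-square per degree of freedom 15.5 and 16.2) than those differed from each other (5.59). Member values are therefore also given without Control replicate 1. In bulk RNA, fewer cells and less RNA per cell cannot be told apart.

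The inducible genes Hspa1a and Hspa1b encode nearly the same cytosolic chaperone. In the order of the replicate numbers, Hspa1a had 5, 5 and 5 counts in the Control libraries and 328, 333 and 428 in the H/R libraries. Hspa1b had 11, 3 and 8 counts in Control and 639, 594 and 854 after H/R. Both genes were near the bottom of the measurable range in every Control library and well above it in every H/R library, with no overlap.

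Their sum, which does not depend on how reads were split between the copies, was 16, 8 and 13 counts in Control and 967, 927 and 1282 after H/R. Scaled by TMM, an edgeR method that sets libraries to a common level by the bulk of their genes, the sum was 11.73 ± 3.7 normalized counts in Control and 1107 ± 152 after H/R (SD, n = 3 each), a 93.2-fold difference (log2 fold change 6.54, SE 0.158). From the raw totals alone, 37 counts against 3176, the ratio per library total was 87.9, with a 95% exact interval for counting error of 63.6 to 125. The rarity of Control reads sets the width of this interval. For Hspa1a alone the ratio was 74.3 (44.9 to 133), and for Hspa1b alone it was 97.1 (64 to 155), so the copies were not distinguishable in their fold at this depth.

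Within the pair, Hspa1b held the larger part of the counts after H/R: 66.1%, 64.1% and 66.6% in the 3 H/R libraries, and 65.7% of all pair counts (95% exact interval 64 to 67.4). In Control the share was 59.5% of 37 counts, with an interval of 42.1 to 75.2 that takes in the H/R value. Of all stretches of 150 bases in the Hspa1a transcript, 39.7% also occurred in the transcripts of Hspa1b or Hspa1l, and the share for Hspa1b was 40.5%. Reads came in pairs of 150 bases each, so a share of single stretches is not the share of read pairs that match both copies. The number of stretches that belonged to one copy alone was 1699 for Hspa1a and 1580 for Hspa1b, a ratio of 0.93 for Hspa1b over Hspa1a. That ratio compares with counts, which after H/R were 639, 594 and 854 for Hspa1b and 328, 333 and 428 for Hspa1a. The RPKM ratio after H/R, which is also divided by gene length, was 2.06, 1.89 and 2.11. RPKM is CPM per kilobase of exon. How reads that match both copies were handled is not given in the sources used here, so the split between them is uncertain and their sum is the firmer value. If such reads were left out or counted for both genes, the level of the sum would be too low or too high.

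A second source of uncertainty lies on the opposite strand. The gene Gm20481 overlaps 19% of the single exon of Hspa1a. It had 1, 1 and 3 counts in Control and 110, 124 and 145 after H/R. Its RPKM after H/R, 9.5 to 11.8, was above that of Hspa1a, 5.39 to 6.63. The strand setting of the counting is not given in the sources used here, so reads of the partners cannot be told apart.

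**Figure D2:**
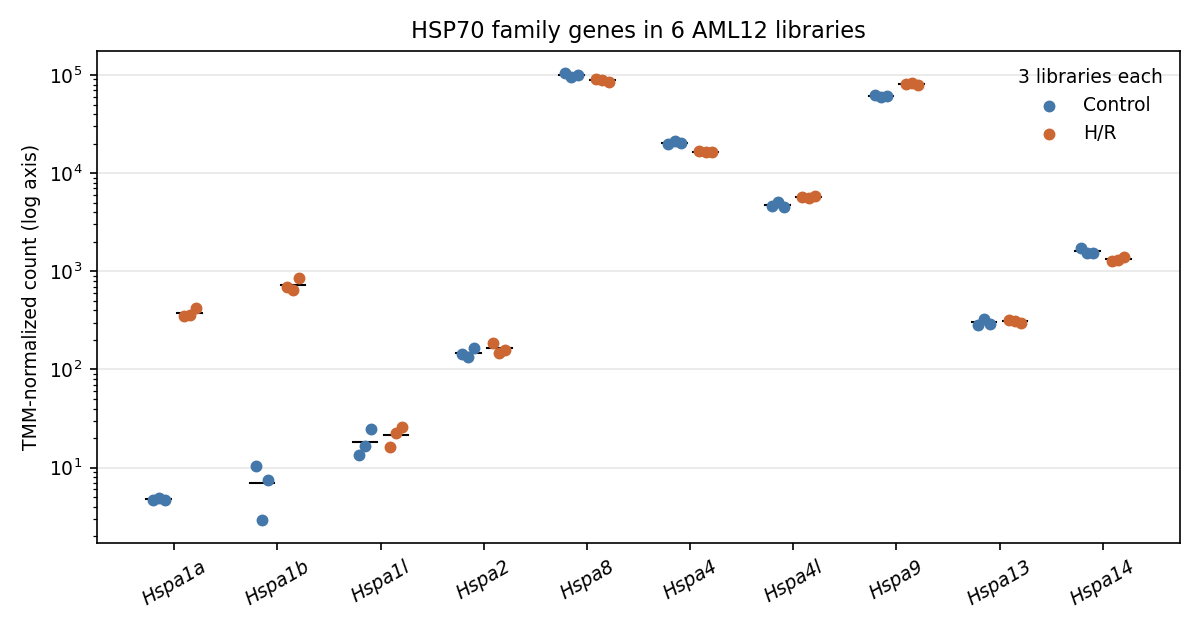
TMM-normalized counts (log axis) of the 10 HSP70 genes in 3 Control (blue) and 3 H/R libraries (orange), with short lines at the group means. Hspa1a and Hspa1b lie at 10.4 or lower in every Control library and at 353.3 or higher in every H/R library, whereas the other 8 genes keep their order of magnitude.

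Among the cytosolic members, Hspa8 was lower after H/R, and Hspa2 and Hspa1l overlapped between the groups. Hspa8 encodes the constitutive cytosolic chaperone (Hsc70), which also strips clathrin from vesicles and carries proteins to lysosomes for chaperone-mediated autophagy; it lies on chromosome 9 from 40800984 to 40810087. Its counts were 110371, 98720 and 107330 in Control and 84592, 81899 and 85593 after H/R. Every H/R library was below every Control library, and the normalized counts of 100600 ± 4130 and 88320 ± 2790 (SD, n = 3 each) differed by -12.2% (log2 fold change -0.19, SE 0.0462).

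Hspa8 has processed copies in the genome, and 55.4% of the 150-base stretches of its transcript also occurred in 4 other genes. This too is a share of single stretches, not of read pairs. Of these, Gm15459 had 37945, 35158 and 37650 counts in Control and 28966, 27827 and 29703 after H/R, which was 34% to 35.6% of the Hspa8 count of the same library. Gm8355 had 4.77% to 5.98% of the Hspa8 count and Gm6210 at most 0.145%. With these 3 copies added, the log2 fold change was -0.20 (SE 0.0455), so the difference was nearly the same with and without them.

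Hspa2 and Hspa1l encode cytosolic members best known from male germ cells. Hspa2 had 153, 138 and 176 counts in Control and 171, 137 and 159 after H/R, and the groups overlapped (148.4 ± 15.8 and 163.6 ± 18.7 normalized counts, log2 fold change 0.14, SE 0.118). Hspa1l, the head-to-head neighbour of Hspa1a, had 14, 17 and 26 counts in Control and 15, 21 and 26 after H/R. The Hspa1l groups also overlapped (log2 fold change 0.26, SE 0.31), and a difference of the size seen for Hspa4l or Hspa9 was not detectable at these counts. In addition, 71.9% of the Hspa1l exon length overlaps the antisense gene Gm10501, which had 8 to 21 counts in Control and 13 to 31 after H/R. Of the 5 male germ cell markers listed, 3 had a row: Prm1 and Ddx4 had at most 1 count in any library and Sycp3 had 3 to 9.

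Hspa4 and Hspa4l, both of the HSP110 type, encode larger relatives that act as nucleotide exchange factors for HSP70, and they differed from Control in opposite directions. Hspa4 (chromosome 11, 53259814 to 53300457) had 20788, 21652 and 21779 counts in Control and 15530, 15247 and 16307 after H/R. Hspa4l (chromosome 3, 40744495 to 40796103) had 4874, 5272 and 4834 counts in Control and 5295, 5122 and 5812 after H/R. Raw Hspa4l counts overlapped, but the normalized counts did not, at 4615.1, 5141.9 and 4550.9 in Control and 5702.9, 5524 and 5808 after H/R.

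The normalized count of Hspa4 thus differed by -19.3% (log2 fold change -0.31, SE 0.0449), and that of Hspa4l was 19.1% higher (0.25, SE 0.0446). The RPKM ratio of Hspa4l to Hspa4, which is free of the scaling between libraries, was 0.11, 0.114 and 0.104 in Control and 0.16, 0.157 and 0.167 after H/R. All 3 H/R ratios were above all 3 Control ratios. The coding sequences of this pair were 66.2% identical, and neither shared a stretch of 150 bases with another gene.

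Hspa9 encodes the mitochondrial HSP70 (mortalin), which pulls proteins into the matrix as part of the import motor, folds them there and takes part in iron-sulfur cluster assembly. It lies on chromosome 18 from 34937414 to 34954357 and had 65983, 61093 and 64419 counts in Control and 75691, 76408 and 79601 after H/R. The normalized counts were 62477.6, 59585.2 and 60646.6 in Control and 81521.7, 82405 and 79546.7 after H/R. The groups were well apart, with means of 60900 ± 1460 and 81160 ± 1460 (SD, n = 3 each), and Hspa9 was 33.3% higher after H/R (log2 fold change 0.41, SE 0.0447). No stretch of 150 bases of its transcript occurred in another gene.

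The coding sequences of Hspa14 and Hspa13 were 44.2% and 41.3% identical to that of Hspa1a. Hspa14 encodes a ribosome-associated member that works with the J-domain protein Dnajc2 on nascent chains. It had 1807, 1581 and 1631 counts in Control and 1172, 1206 and 1405 after H/R, with all H/R libraries lower, and its normalized count differed by -17.1% (log2 fold change -0.27, SE 0.0527). Dnajc2 itself had a log2 fold change of -0.06 (SE 0.0425, adjusted p = 0.212 in edgeR's quasi-likelihood test).

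Hspa13 encodes a microsomal protein with the ATPase part of the family but without its substrate-binding part. Its counts were 302, 334 and 310 in Control and 294, 290 and 298 after H/R. The normalized counts overlapped, at 301.2 ± 21.5 and 309.1 ± 9.95, with a log2 fold change of 0.04 (SE 0.0858). Hspa13 was the only member whose sign turned with the scaling, to -0.07 with library totals alone.

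**Figure D3:**
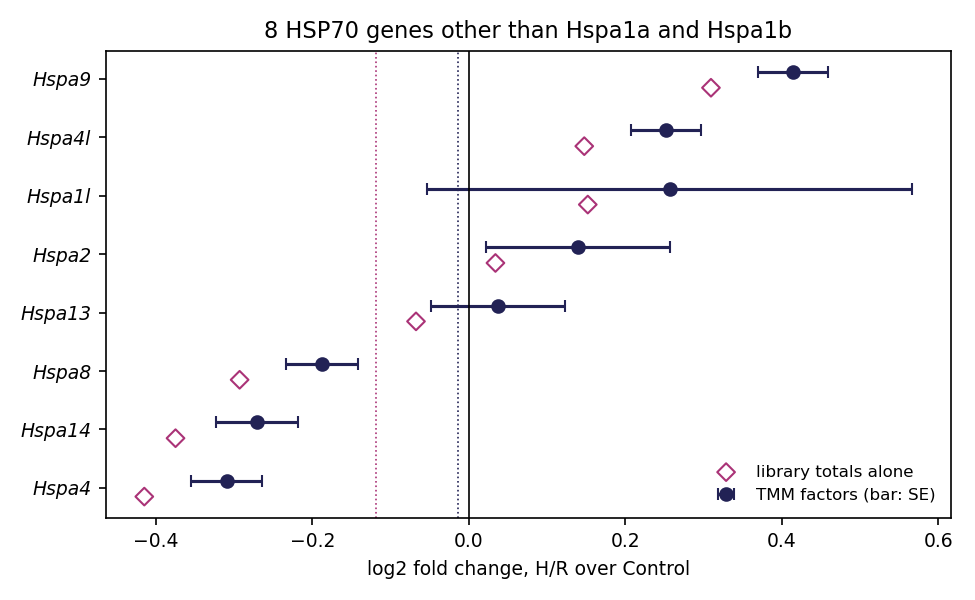
Log2 fold changes (H/R over Control) of the 8 HSP70 genes other than Hspa1a and Hspa1b, with TMM factors (filled circles, bars are ±1 SE) and with library totals alone (open diamonds); dotted lines mark the median of all 14020 genes under each scaling. Hspa9 and Hspa4l lie to the right of both medians, and Hspa4, Hspa14 and Hspa8 to the left of both.

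All 10 members passed the filter on low counts, but Hspa1a was over its limit of 0.472 CPM in 0 Control libraries and Hspa1b in 1, so both passed through the H/R group. At an adjusted p under 0.05 in edgeR's quasi-likelihood test, 4 members were higher after H/R (Hspa1a, Hspa1b, Hspa9 and Hspa4l), where 31.0% of all 14020 genes tested were higher, and 3 were lower (Hspa4, Hspa14 and Hspa8), where 31.8% of all genes were lower. With a fold of at least 2 as well, 2 members were higher (Hspa1a and Hspa1b; 4.25% of all genes) and 0 were lower (4.27%). Normalized counts did not overlap between groups in the same 4 and 3 members, against 32.5% of all genes with no overlap and higher and 33.5% with no overlap and lower. Since the members were selected on this contrast, nothing is read from these counts.

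With Control replicate 1 left out, the log2 fold change was 6.77 for the sum of Hspa1a and Hspa1b, 0.43 for Hspa9, 0.23 for Hspa4l, -0.16 for Hspa8, -0.22 for Hspa14 and -0.34 for Hspa4. Hspa2 was then at 0.12, Hspa1l at 0.07 and Hspa13 at 0.00. Scaling by library totals alone moved the median log2 fold change over all genes from -0.01 to -0.12, and relative to that shift the members kept their places: Hspa9 was at 0.31, Hspa4l at 0.15, Hspa8 at -0.29 and Hspa4 at -0.41.

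On a scale per length (RPKM, n = 3 per group, ± SD), the Control order was Hspa8 (1145.5 ± 46.7), Hspa9 (758.4 ± 16.9), Hspa4 (181.0 ± 7.81), Hspa4l (19.8 ± 1.28), Hspa14 (9.67 ± 0.495), Hspa2 (2.89 ± 0.349), Hspa13 (2.5 ± 0.178), Hspa1l (0.36 ± 0.121), Hspa1b (0.121 ± 0.0652) and Hspa1a (0.0788 ± 0.00154). Only Hspa2 and Hspa13, and Hspa1b and Hspa1a, overlapped as neighbours in this order. Hspa8 ranked 41 and Hspa9 73 by mean RPKM among the 25330 genes. Hspa1b and Hspa1a ranked 16400 and 17331.

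After H/R the order was Hspa9 (939.9 ± 9.99), Hspa8 (935.1 ± 21.7), Hspa4 (135.8 ± 0.97), Hspa4l (21.9 ± 0.71), Hspa1b (11.8 ± 1.93), Hspa14 (7.45 ± 0.484), Hspa1a (5.84 ± 0.693), Hspa2 (2.96 ± 0.326), Hspa13 (2.39 ± 0.0551) and Hspa1l (0.398 ± 0.0952). Here only Hspa9 and Hspa8 overlapped. Hspa1b had moved from rank 16400 to rank 4116 and Hspa1a from 17331 to 6353, which placed Hspa1b between Hspa4l and Hspa14 with the deposited lengths.

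The order depended on the length used. The deposited length of Hspa8 was 4301 bases against 2394 for its main transcript, and that of Hspa14 was 8083 against 1795. With main transcript lengths, Hspa8 stayed above Hspa9 in every library after H/R, and Hspa14 held 1% to 1.16% of the summed family RPKM after H/R, above Hspa4l at 0.841% to 0.91%. Hspa1b, at 0.33% to 0.452%, was then below both. Comparisons of 1 gene between groups do not depend on this choice.

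The ratio of the mitochondrial member Hspa9 to the constitutive member Hspa8 was not the same in both groups. The RPKM ratio of Hspa9 to Hspa8 was 0.654, 0.677 and 0.657 in the 3 Control libraries and 0.979, 1.02 and 1.02 in the 3 H/R libraries, and with main transcript lengths it was 0.469 to 0.486 and 0.703 to 0.733. The mean ratio was 1.52 times higher after H/R with either length. Both sets of ratios are without overlap, and they are free of the scaling between libraries. Both genes were selected on this contrast, and the share of other gene pairs whose ratios do not overlap was not computed. In these ratios, and in all levels, ranks and shares given here, Hspa8 was counted without its copies. Gm15459 alone had 34.4% to 35.6% of the Hspa8 count in Control and 34% to 34.7% after H/R. Ratios of Hspa9 to Hspa8 with the copies added were not computed, and they would be lower with either length.

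Hspa1a and Hspa1b remained a small part of the family. The summed RPKM of the 10 genes was 2149, 2053 and 2159 in Control and 2084, 2067 and 2039 after H/R, with overlapping ranges. It is not the total of all HSP70 mRNA. Hspa5, the HSP70 of the endoplasmic reticulum, is not among the 10, and its mean RPKM ratio to Hspa8 was 0.148 in Control and 0.412 after H/R. Hspa1a and Hspa1b together made up 0.00638% to 0.0119% of the sum of the 10 genes in Control and 0.767% to 1.01% after H/R. With main transcript lengths that share was smaller, at 0.00408% to 0.00759% in Control and 0.505% to 0.666% after H/R. With the deposited lengths, Hspa8 went from 53.2% to 54.6% down to 44.9% to 46%, Hspa9 from 35.6% to 36% up to 45% to 46%, and Hspa4 from 8.01% to 9.07% down to 6.53% to 6.65%. With main transcript lengths Hspa8 went from 61.1% to 62.4% down to 53.1% to 54.2%, and Hspa9 from 29.2% to 29.7% up to 38.1% to 39%. The RPKM ratio of Hspa1a and Hspa1b to Hspa8 was 0.0189 ± 0.00314 after H/R, against 0.000174 ± 4.98e-05 in Control.

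**Figure D4:**
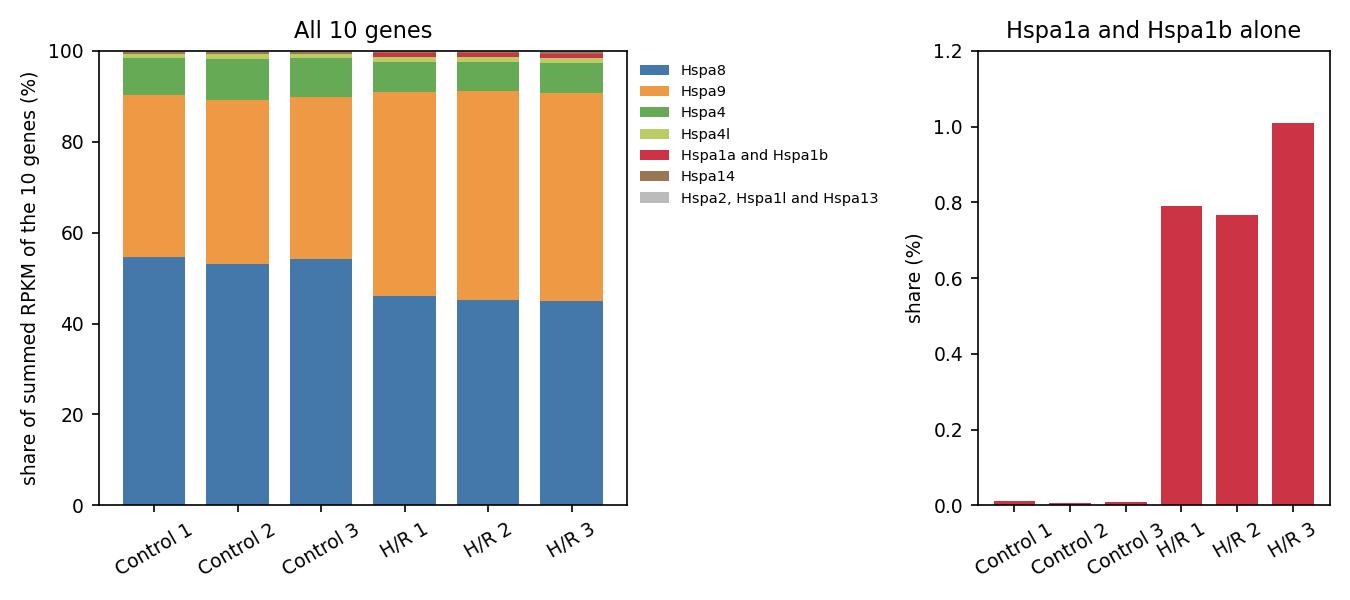
Share (%) of each HSP70 gene in the summed RPKM (deposited gene lengths) of the 10 genes by library (left) and the share of Hspa1a and Hspa1b alone on a wider scale (right). With these lengths Hspa8 and Hspa9 hold about equal shares in the H/R libraries (53.1% to 54.2% and 38.1% to 39% with main transcript lengths), and Hspa1a and Hspa1b reach 0.767% to 1.01% there. Hspa8 is counted without its processed copies.

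Over the 6 libraries, the genes outside the family whose pattern was nearest to the sum of Hspa1a and Hspa1b, by the root mean square difference of centred log2 CPM, were Egr1 (0.394), the antisense gene Gm20481 (0.634) and Pgf (0.931). Egr1, an immediate-early transcription factor, had 13, 15 and 26 counts in Control and 1484, 1594 and 1584 after H/R. Pgf, which encodes placental growth factor, had 17, 7 and 6 counts in Control and 241, 233 and 266 after H/R. The 3 patterns share the same libraries and the same low Control level, and nothing about shared control follows from them.

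Genes that work with the HSP70 chaperones were examined as 8 lists of 60 genes, none of them members, of which 59 had a row and 55 were tested. Of these 55, 27 rose and 14 fell at an adjusted p under 0.05 in edgeR's quasi-likelihood test (shares over all genes, 31.0% and 31.8%), with a median log2 fold change of 0.09 against -0.01 over all 14020 genes. The split depended on the scaling: it was 16 higher and 22 lower with library totals, 17 and 18 with upper quartile scaling, and 24 and 13 with DESeq2. Without Control replicate 1 it was 23 and 14. The splits of single lists given below are for TMM, beside the same shares over all genes, and they moved too. With library totals, 3 cytosolic J-domain proteins were higher and 5 lower. The split was then 1 and 4 for cytosolic nucleotide exchange factors, 1 and 3 for adaptors and HSP90 genes, and 4 and 5 for mitochondrial partners. It was 4 and 2 for partners of Hspa5, 2 and 1 for other superfamily genes, and 1 and 1 for small heat shock proteins. No called gene of the lists changed its sign under another scaling, and 29 of the 41 called genes (16 higher and 13 lower) were called in the same direction under all 15 alternatives. Among the genes named as changed in the next paragraphs, the exceptions were Hyou1, Bag5, Hsf1, Hsf2 and Hspb6. The adjusted p-values that follow are from the same test over all genes.

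Of the J-domain proteins of the cytosol, which hand substrates to HSP70, 6 rose, 3 fell and 3 did not pass the test of 12 tested. Dnajb4 rose from 399.2 ± 29 to 1237 ± 6.93 normalized counts (log2 fold change 1.63, SE 0.0609, adjusted p = 4.13e-22, edgeR), and Dnajb1, a main partner of the inducible HSP70, rose from 1448 ± 48.4 to 3499 ± 77.9 (1.27, SE 0.045, adjusted p = 8.71e-23, edgeR). Dnajc5, a synaptic vesicle and secretion protein, rose less (0.48, adjusted p = 6.67e-12, edgeR). Dnaja1 fell from 6557 ± 165 to 4243 ± 154 (-0.63, SE 0.0415, adjusted p = 3.23e-15, edgeR), although 10.8% of its exon length overlaps other genes, and Dnajc7 fell by 0.37 on the log2 scale (adjusted p = 1.03e-09, edgeR). Dnaja4 was at -0.50 (adjusted p = 0.203, edgeR), at means of 18.43 and 13.08 normalized counts. The list therefore held genes on both sides, as the members did.

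Of the 7 nucleotide exchange factors of the cytosol, 2 rose, 3 fell and 2 did not pass the test. Bag3, which links HSP70 to selective autophagy, rose from 1317 ± 53.8 to 2072 ± 21.8 normalized counts (log2 fold change 0.65, SE 0.0472, adjusted p = 3.23e-14, edgeR), and Bag5 rose by 0.15 (adjusted p = 0.0132, edgeR). Hspbp1 fell by 0.62 (adjusted p = 1.6e-07, edgeR), Bag2, which restrains the ubiquitin ligase encoded by Stub1, fell by 0.33 (adjusted p = 6.42e-08, edgeR), and Hsph1, an HSP110 like Hspa4, fell by 0.37 (adjusted p = 1.43e-09, edgeR). Hsph1 and Hspa4 were both lower and Hspa4l was higher among the HSP110 genes of the cytosol.

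Among the 5 adaptors and HSP90 genes that take over substrates from HSP70, 1 rose and 2 fell. St13 rose by 0.20 (adjusted p = 0.000248, edgeR), while Stip1, which bridges HSP70 and HSP90, fell by 0.16 (adjusted p = 0.00198, edgeR) and Stub1 by 0.14 (adjusted p = 0.00347, edgeR), with 40.9% of the Stub1 exon length overlapping other genes. The cytosolic HSP90 genes Hsp90aa1 and Hsp90ab1 were at log2 fold changes of 0.01 (SE 0.0463) and 0.09 (SE 0.045), with adjusted p = 0.859 and 0.079 in edgeR, and both turned negative with library totals alone. Their normalized means after H/R were 0.718% and 6.49% above Control.

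Of the 12 genes that work with the mitochondrial chaperone encoded by Hspa9, 6 rose, 3 fell and 3 did not pass the test. Grpel2, one of its nucleotide exchange factors, rose by 0.56 (SE 0.0518, adjusted p = 1.89e-11, edgeR), the import motor subunit Pam16 by 0.59 (SE 0.173, adjusted p = 0.00354, edgeR) and the J-domain protein Dnaja3 by 0.43 (SE 0.0496, adjusted p = 2.23e-09, edgeR). Dnlz, which keeps the mitochondrial HSP70 soluble, fell by 0.64 (SE 0.0681, adjusted p = 5.16e-10, edgeR). Grpel1, the other nucleotide exchange factor, was at -0.06 (adjusted p = 0.26, edgeR), and the J-domain protein Hscb at -0.26 (adjusted p = 0.132, edgeR). Hspe1, which encodes the lid of the mitochondrial chaperonin, fell by 0.31 (SE 0.0434, adjusted p = 1.65e-07, edgeR), and Hspd1, which encodes its barrel, by 0.26 (SE 0.0438, adjusted p = 4.22e-06, edgeR).

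Hspa9 and the chaperonin genes thus differed from Control in opposite directions. The RPKM ratio of Hspd1 to Hspa9 was 0.633, 0.671 and 0.652 in Control and 0.409, 0.402 and 0.416 after H/R. All 3 H/R ratios were lower. Hspd1 and Hspe1 overlap on opposite strands over 4.24% of the exon length of Hspd1 and 7.6% of that of Hspe1.

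In the other compartments and branches of the HSP70 superfamily, 3 of 4 tested genes rose and 1 fell. Hspa5, the HSP70 of the endoplasmic reticulum (BiP), rose from 14590 ± 235 to 35800 ± 1400 normalized counts (log2 fold change 1.30, SE 0.0462, adjusted p = 1.13e-22, edgeR). Its RPKM ratio to Hspa8 was 0.148 ± 0.00839 in Control and 0.412 ± 0.00467 after H/R. The distant relative Hspa12a rose by 0.74 (SE 0.139, adjusted p = 2.24e-05, edgeR), Hyou1, the HSP110 of the endoplasmic reticulum, rose by 0.13 (adjusted p = 0.0123, edgeR), and Hsph1 fell as given above. Of the 9 partners of Hspa5, 6 rose, 1 fell and 2 did not pass the test, among them Dnajb9 (1.30, SE 0.0822, adjusted p = 9.64e-16, edgeR), Dnajc1 (0.34, adjusted p = 1.9e-07, edgeR), Sdf2l1 (0.32, adjusted p = 0.00249, edgeR) and, as the one that fell, Dnajc10 (-0.24, adjusted p = 8.3e-06, edgeR).

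The heat shock factors and their regulators were read as mRNA alone, and the activity of the factors was not measured. Of 4 genes tested in this list, Hsf1 rose by 0.18 (SE 0.066, adjusted p = 0.0187, edgeR) and Hsf2 fell by 0.26 (SE 0.0818, adjusted p = 0.00614, edgeR). Hsf1 passed the test under 6 of 15 alternatives, and not with library totals, upper quartile scaling, DESeq2 or without Control replicate 1, and Hsf2 did not pass it with DESeq2. Hsf4 was at -0.40 (SE 0.197, adjusted p = 0.0748, edgeR). Of 3 small heat shock proteins tested, Cryab rose by 0.67 (SE 0.0604, adjusted p = 9.47e-12, edgeR), with 17% of its exon length overlapping Hspb2, Hspb6 rose by 0.23 (adjusted p = 0.0251, edgeR) and Hspb8 fell by 0.18 (adjusted p = 0.00465, edgeR).

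**Figure D5:**
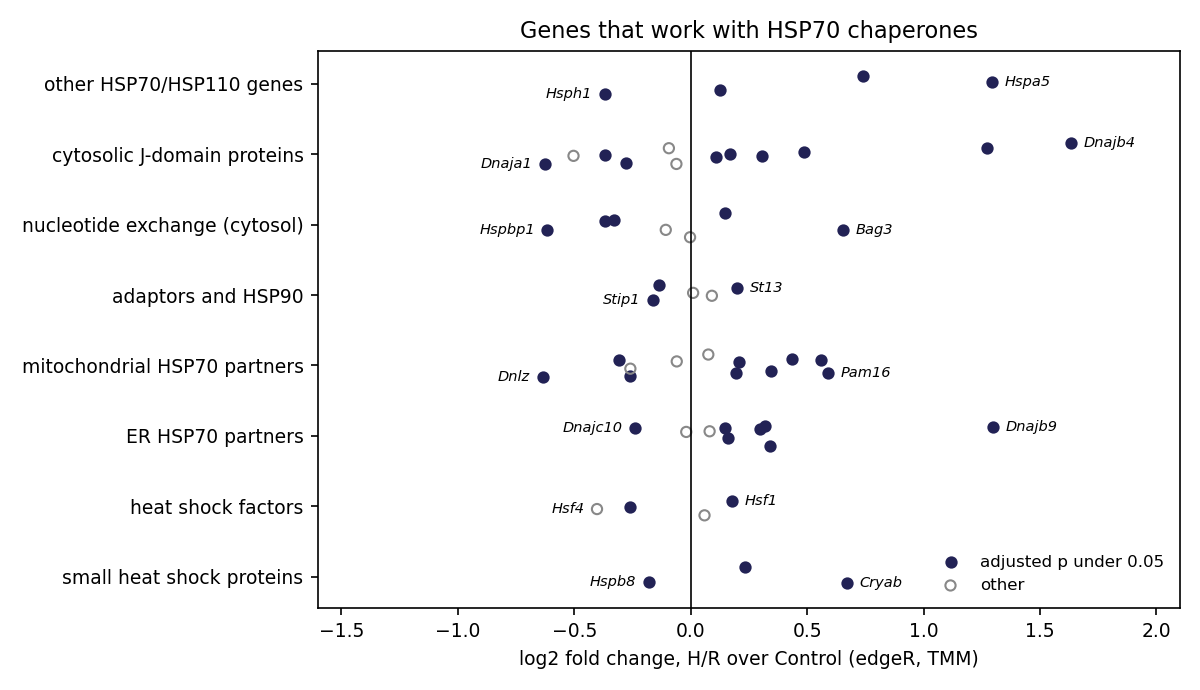
Log2 fold changes (H/R over Control) of 55 genes that work with HSP70 chaperones, by list; filled points passed an adjusted p of 0.05 in edgeR and open points did not. Dnajb4, Dnajb9, Hspa5 and Dnajb1 are the 4 genes at a log2 fold change over 1, none lies below -1, and every list of cytosolic partners holds points on both sides of 0.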

How the data were processed

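Stranded mRNA libraries of total RNA were made from 3 Control and 3 H/R samples, grouped by their titles. The submitters' processing notes name Trimmomatic 0.36, featureCounts of Subread 1.5.1, edgeR 3.12.1 and GRCm38/mm10; the annotation and the handling of strand and shared reads are not given in the sources used here. The deposited counts are whole reads per gene without normalization, and the deposited RPKM values follow from count, gene length and library total (largest relative error 1.13e-06). The labels do not say that replicates were separate cultures, so p-values measure only the spread between these samples.

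Counts were fitted in R 4.3.3 with edgeR 4.0.16 (filterByExpr with a minimum count of 10, TMM, robust glmQLFit, glmQLFTest, Benjamini-Hochberg over 14020 genes), after a check on simulated data. SE values were derived from the F statistic. The fit of the sum of Hspa1a and Hspa1b replaced their rows by 1 row. Transcripts came from GENCODE M21 (GRCm38) and promoters from RefSeq. Alternatives were DESeq2 1.42.0, 2 other scalings, 2 other filters, a replicate block, non-robust dispersions, limma 3.58.1 on log2(RPKM + 1) and log2(RPKM + 0.1), leaving out each library, and fold thresholds of 1.5 and 4. Adding its copies to Hspa8 was chosen after seeing the data. Intervals cover counting error only.

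The members and lists were chosen with earlier results of these data known. Named were the members, up to 3 genes per list and direction by absolute log2 fold change, and the 3 genes nearest to the Hspa1a and Hspa1b sum. Hspd1, Grpel1, Dnajc2, Rn18s-rs5 and the overlapping genes and copies were named after their values were seen.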

Additional observations from a re-analysis of the deposited data

How the results depend on the processing

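Every member except Hspa13 kept the sign of its log2 fold change under each alternative run. Hspa13 (0.04) became -0.0676 with library totals, -0.0331 with upper quartile scaling, -0.0469 on log2(RPKM + 1) and -0.063 on log2(RPKM + 0.1). The sum of Hspa1a and Hspa1b lay between 6.33 and 6.77 when 1 library was left out and fell to 3.95 on log2(RPKM + 1), where the pseudocount exceeds the Control level. Hspa9 ranged from 0.31 to 0.43, Hspa8 from -0.29 to -0.16 and Hspa4 from -0.41 to -0.29 over all alternatives. The number of members past both thresholds was 0 with at least 10 counts in every library, since Hspa1a and Hspa1b are then not tested. Over all genes, 1195 passed both an adjusted p under 0.05 and a fold of at least 2. That number was 882 with this filter, 406 on log2(RPKM + 1), 3420 with a fold threshold of 1.5 and 162 with one of 4. The number of partner genes called was 35 to 42. With a replicate block, Hspa9 was at 0.4143 and Hspa8 at -0.1876, and the sum of Hspa1a and Hspa1b at 6.54. Deviations of same-numbered replicates correlated at -0.0269, 0.00476 and -0.0141, so no shared effect of the replicate number was seen. Whether same-numbered samples were handled together is not given by the labels. The depth limits the fold of Hspa1a and Hspa1b, which had 37 Control counts in all, and any change of Hspa1l.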
